A study of Rattus norvegicus with 6 samples.

Results

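The nuclear genes of respiratory complexes II, III, IV and V were followed in the liver of rat pups whose mothers had eaten a high fat diet. They were taken as the genes whose annotated symbol is Sdha to Sdhd, Cyc1 or Cycs, or begins with Uqcr, Cox4 to Cox8, or Atp5. A gene with several probe sets was represented by the probe set with the highest mean over the 6 arrays. This gave 45 of the 14217 genes with a probe set of their own. There were 4 genes of complex II, 8 of complex III, 17 of complex IV and 16 of complex V. Of these, 39 exceeded the brightness limit and were among the 10372 genes tested, and the other 6 were complex IV isoforms.

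The study measured liver RNA of Sprague-Dawley pups at 3 weeks of age, when they were weaned, on Affymetrix 3' expression arrays, 1 array per sample. The control group was 3 pups of dams on standard chow, and the high fat group was 3 pups whose dams ate a high fat diet. The labels name no agent or genotype, and do not give the composition of the diets, when they were fed, what the pups ate, their sex or their litters. Litter mates would share a dam, and the p-values measure only the spread between these pups. The question is whether maternal diet is reflected in gene expression of the liver at weaning.

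The respiratory chain sits in the inner mitochondrial membrane. Complex II oxidises succinate, complex III takes electrons from coenzyme Q to cytochrome c, complex IV passes them to oxygen, and complex V, the ATP synthase, makes ATP from the proton gradient that results. Most subunits of complexes III to V and all of complex II are encoded in the nucleus, whereas complexes III to V also contain subunits encoded in mitochondrial DNA, which are not described here. Liver depends on this chain for the ATP used in gluconeogenesis and urea synthesis. NRF1, GABPA and YY1 are transcription factors known to act on many of the nuclear genes.

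Parts of the members' promoters are shown because many of these genes are known targets of the same factors. Promoters from RefSeq on the rat build GRCr8, from 250 bases before to 50 after the gene start, were found for 38 of the 45 genes. They were searched on both strands for GCGCATGC (part of the NRF1 motif), CCGGAAG (the GABPA core) and AAGATGGC (part of the YY1 motif). Printed are the stretches around the matches, in the direction of the gene, with the matches in capitals, so a match on the other strand reads as its reverse complement (CTTCCGG, GCATGCGC or GCCATCTT). No match of 1 motif overlaps one of another in these stretches, and the longest run of capitals, in Atp5me, is the NRF1 letters matched on both strands. The choice is the 3 genes with a match among the 5 with the smallest p-values, and 1 gene each of complexes II and IV. They lie at chr14:1464657-1464875 (plus strand), chr12:14535451-14535484 (plus strand), chr5:134790939-134790985 (minus strand), chr5:158547747-158547852 (plus strand) and chr9:46417803-46417849 (plus strand) of GRCr8.
Atp5me: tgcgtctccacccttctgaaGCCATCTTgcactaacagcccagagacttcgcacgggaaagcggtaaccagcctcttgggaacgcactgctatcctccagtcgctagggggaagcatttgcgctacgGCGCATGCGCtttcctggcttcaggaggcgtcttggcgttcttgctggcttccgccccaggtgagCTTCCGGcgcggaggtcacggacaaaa
Atp5mf: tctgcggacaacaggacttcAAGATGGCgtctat
Uqcrh: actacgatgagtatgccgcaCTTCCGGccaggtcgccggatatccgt
Sdhb: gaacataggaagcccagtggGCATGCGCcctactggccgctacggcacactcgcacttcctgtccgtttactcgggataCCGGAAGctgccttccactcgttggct
Cox5b: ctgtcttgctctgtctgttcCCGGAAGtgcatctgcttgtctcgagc
The Atp5me stretch holds all 3 motifs, that of Sdhb the NRF1 and GABPA letters, those of Uqcrh and Cox5b the GABPA core and that of Atp5mf the YY1 letters.

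The GABPA core was found in the promoters of 13 of the 38 members (34.2%), against 9.63% of 27457 promoters of all genes and 18.9% of those of 8682 genes tested. The YY1 letters were in 7 members (18.4%, against 3.62% of all and 5.91% of tested genes). The NRF1 letters were in 5 members (13.2%, against 2.77% and 5.17%). At least 1 of the motifs was in 17 members (44.7%), against 14.7% of all genes and 27% of tested genes. A match describes these letters in this window and is no evidence of binding.

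Several arrays stood apart in ways the labels do not give. High fat replicate 1 had a log2 signal of 13.08 for the pancreatic trypsinogen Prss1, against 4.10 to 5.30 on the other arrays. High fat replicate 3 alone was low for the X-inactivation transcript Xist (4.45, against 12.46 to 13.31) and high for the Y-linked Eif2s3y (11.14, against at most 3.99). The difference between 3' and 5' control probe sets of Actb and Gapdh, which widens as RNA degrades, averaged 1.96 to 3.09 log2 units and was widest in control replicate 3 and narrowest in high fat replicate 2. The hepatocyte proteins Alb (14.46 to 14.77) and Ttr (14.64 to 14.81) were high on every array. The number of arrays limits the precision.

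Of the 39 tested genes of complexes II to V, 36 had a lower mean in pups of high fat dams (92.3%), against 53.1% of all genes tested. Their median log2 difference, high fat minus control, was -0.18, with a range from -0.80 to 0.18, against -0.02 over all genes tested. None passed a limma adjusted p under 0.05, as 0.0386% of all genes did (4 genes), and the smallest adjusted p was 0.207, for Atp5me. At an unadjusted p under 0.05, 5 members were lower (12.8%, where 7.51% of all genes were) and 0 were higher (6.56% of all genes were). The differences were thus small for single genes, and what the members shared was their direction.

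In 24 of the 39 genes (61.5%) all 3 high fat arrays lay below all 3 control arrays, which held for 11.5% of all genes tested. The reverse, all high fat arrays above all controls, held for 1 member (2.56%, against 9.24% of all genes). Array by array, 26 members in high fat replicate 1, 34 in replicate 2 and 31 in replicate 3 were below every control. Counts per array, here and below, were not taken over all genes. The median member stood -0.14, -0.21 and -0.19 from the control mean on high fat replicates 1, 2 and 3, and -0.06, -0.02 and 0.06 on control replicates 1, 2 and 3. Over all genes tested the medians were -0.02, -0.03 and -0.01 on the high fat arrays and -0.002, 0.011 and -0.009 on the controls. The arrays differed within the groups too, since control replicate 3 held the highest value of the 6 for 23 members and high fat replicate 2 the lowest for 21. Those are the arrays with the widest and the narrowest 3' to 5' difference; with that difference as a covariate, 36 members were lower, their median was -0.15 and 2 had an unadjusted p under 0.05. These 36 are not all the same genes, since Uqcrq and Cox5a became higher with the covariate and Sdha and Uqcrc2 lower. Without high fat replicates 1 and 3 together, a setting chosen after seeing the data, only high fat replicate 2 was left in its group. The result, 36 members lower with a median of -0.21, repeats the values of that array and is no separate check. The count of 5 was lower with any 1 array left out. It was 3 when control replicate 1, control replicate 2 or high fat replicate 3 was left out. It was 2 when control replicate 3 or high fat replicate 1 was, and 1 for high fat replicate 2. Over all genes tested 1459 had an unadjusted p under 0.05 in limma, and fewer did when control replicate 1 or 3 was left out. Since each such fit has fewer arrays, the lower counts cannot show that the members depend on a given array.

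**Figure D1:**
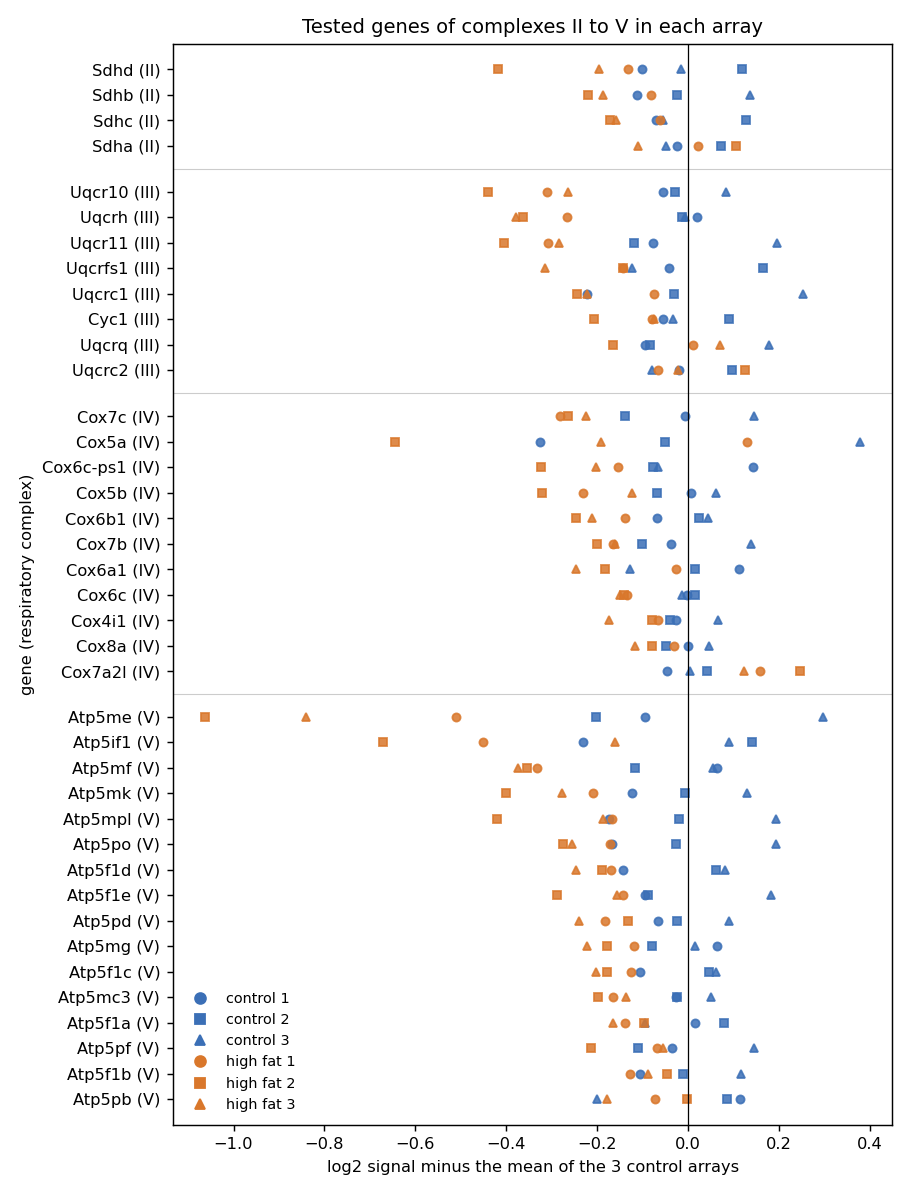
Log2 signal of each of the 39 tested genes on each of the 6 arrays, as the distance from the mean of the 3 control arrays (x axis, log2 units), with genes grouped by complex on the y axis; each point is 1 array. High fat points lie left of all control points for 24 genes and right of them for Cox7a2l alone.

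The members varied little between arrays of the same group. The median SD within groups was 0.09 log2 units for the members and 0.22 for all genes tested. The median size of the difference, without its sign, was 0.18 for the members and 0.19 for all genes. Only Atp5me differed by more than 1.5-fold (2.56% of the members, against 9.76% of all genes). These values were compared only with all genes, whose median level was 9.07, against 13.38 for the members. Most members were measured on bright probe sets, so direction and overlap were also taken over the 933 other genes with a mean of 12 or more. Of these 51.7% were lower, with a median of -0.01, and 13.8% had all high fat arrays below all controls.

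**Figure D2:**
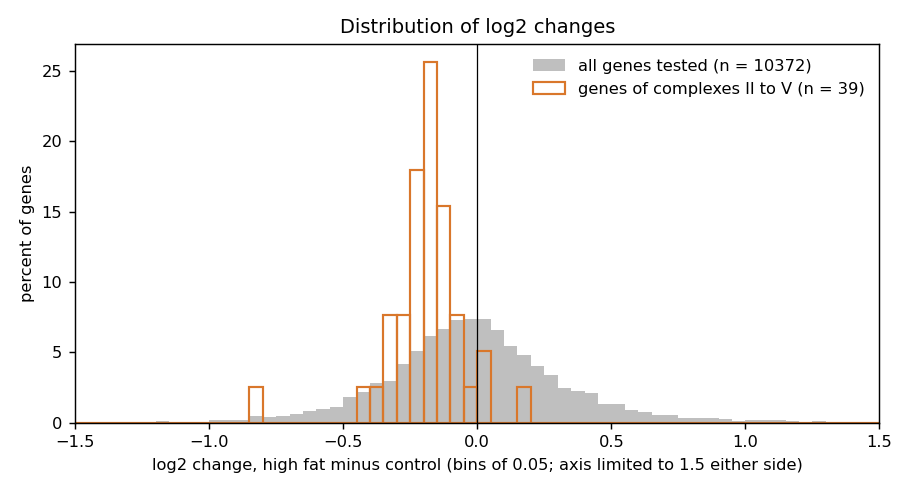
Percent of genes (y axis) by log2 difference, high fat minus control, in bins of 0.05 (x axis), for all 10372 genes tested (grey) and for the 39 genes of complexes II to V (outline). The members' median is -0.18 and that of all genes is -0.02.

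Complex II, succinate dehydrogenase, was the complex with the smallest share of lower genes, 3 of 4, with a median of -0.15. Sdha, the flavoprotein that oxidises succinate, had log2 signals of 12.54, 12.64 and 12.52 in controls and 12.59, 12.67 and 12.45 in the high fat group. The groups overlapped, with a log2 difference of 0.01 (SE 0.13, limma adjusted p = 0.988), and its sign turned under several settings. Sdhb, the iron-sulfur subunit, had 13.12, 13.20 and 13.37 in controls and 13.15, 13.01 and 13.04 in high fat pups (difference -0.16, SE 0.13, limma adjusted p = 0.623). High fat replicate 1 lay within the controls for this gene. Both membrane anchors had lower means. For Sdhc the signals were 13.20, 13.40 and 13.22 against 13.21, 13.10 and 13.12 (difference -0.13, SE 0.13, limma adjusted p = 0.679), which overlap through high fat replicate 1. Sdhd, the other anchor, had 13.40, 13.62 and 13.48 in controls and 13.37, 13.08 and 13.30 in the high fat group. It was the only complex II gene without overlap, 15.8% lower in the mean (difference -0.25, SE 0.14, limma adjusted p = 0.483). A second Sdhd probe set differed by -0.24, also without overlap.

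Complex III had 7 of 8 genes lower, a median of -0.19 and 5 genes without overlap (62.5%, against 11.5% of all genes tested). The lower values were led by its small accessory subunits. Uqcrh, the hinge protein beside cytochrome c1, had 13.67, 13.63 and 13.64 in controls and 13.38, 13.28 and 13.27 in high fat pups. Both groups were tight and well apart (13.65 ± 0.02 and 13.31 ± 0.06, SD, n = 3 each), with a difference of -0.34, or 20.8% lower (SE 0.12, limma adjusted p = 0.292). Uqcr10, another small subunit, had 14.15, 14.18 and 14.29 in controls and 13.90, 13.77 and 13.94 in high fat pups. Its groups did not overlap either (difference -0.34, SE 0.12, limma adjusted p = 0.305). Uqcr11, likewise small, had 13.17, 13.12 and 13.44 against 12.94, 12.84 and 12.96 (difference -0.33, SE 0.14, limma adjusted p = 0.349). Uqcrq, the fourth of the small subunits, stood apart from these, with controls from 13.94 to 14.21, high fat arrays from 13.87 to 14.11 and a difference of -0.03 (SE 0.14).

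The catalytic subunits of complex III were lower by less. Uqcrfs1, the Rieske iron-sulfur protein, had 13.47, 13.68 and 13.39 in controls and 13.37, 13.37 and 13.20 in high fat pups (difference -0.20, SE 0.14, limma adjusted p = 0.563). The groups touched without overlapping, 13.39 against 13.37. Cyc1, cytochrome c1, had 13.04, 13.18 and 13.06 against 13.01, 12.88 and 13.02 (difference -0.12, SE 0.12, limma adjusted p = 0.696), again separated by a narrow margin. The core proteins, which hold the complex together, differed in sign: Uqcrc1 by -0.18 (SE 0.16) and Uqcrc2 by 0.01 (SE 0.13), both with overlap. The value of Uqcrc1 was -0.05 without control replicate 3 and -0.29 without control replicate 1. Whether small and catalytic subunits differ was not tested.

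Complex IV, cytochrome c oxidase, had 11 genes tested, of which 10 were lower (median -0.18). Without overlap, 7 were lower (63.6%, against 11.5% of all genes tested) and 1 was higher (9.24% of all genes were). None had an unadjusted p under 0.05. All 9 nuclear subunits common to most tissues were lower, 6 of them without overlap. Cox7c, a small subunit, had 13.31, 13.18 and 13.46 in controls and 13.03, 13.05 and 13.09 in the high fat group. This was the smallest p of the complex (difference -0.26, SE 0.13, limma adjusted p = 0.432). Cox5b, a zinc-binding matrix subunit, had 13.53, 13.46 and 13.59 against 13.29, 13.20 and 13.40 (difference -0.23, SE 0.12, limma adjusted p = 0.472). The groups were again apart.

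Cox4i1, the regulatory subunit at which ATP is bound, had 13.94, 13.93 and 14.04 in controls and 13.91, 13.89 and 13.80 in high fat pups. Its difference was small, -0.11 (SE 0.12, limma adjusted p = 0.724), yet without overlap. Cox6c had the tightest groups of all these genes, 14.29, 14.31 and 14.28 against 14.16, 14.15 and 14.14, and was 9.35% lower (difference -0.14, SE 0.11, limma adjusted p = 0.622). Its own spread was far below the SE, which limma draws in part from all genes. Cox5a, a matrix-side subunit, was measured here on a dimmer probe set and had 9.38, 9.65 and 10.08 against 9.83, 9.06 and 9.51 (difference -0.24, SE 0.26), with wide overlap. Leaving out high fat replicate 1 gave -0.42, and leaving out replicate 2 of that group gave -0.03. A brighter Cox5a probe set is annotated to several genes and was not used.

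For Cox6a1 the signals were 13.77, 13.67 and 13.53 in controls and 13.63, 13.47 and 13.41 in high fat pups (difference -0.15, SE 0.13). Cox6b1, which bridges the monomers of the dimer, had 13.23, 13.33 and 13.34 against 13.16, 13.05 and 13.09 (difference -0.20, SE 0.12). The first pair of groups overlapped and the second did not. Cox7b had 14.17, 14.11 and 14.34 against 14.04, 14.00 and 14.05 (difference -0.18, SE 0.13), without overlap. Cox8a had 14.03, 13.98 and 14.07 against 13.99, 13.94 and 13.91 (difference -0.08, SE 0.12), with overlap.

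Isoforms of complex IV known from other tissues were below the brightness limit of 5.83 and were not tested. The muscle and heart forms gave mean log2 signals of 3.07 ± 2.19 in controls and 3.61 ± 0.84 in high fat pups for Cox6a2, 5.23 ± 0.35 and 4.52 ± 0.91 for Cox7a1, and 3.23 ± 1.56 and 1.97 ± 1.23 for Cox8b (SD, n = 3 each). The lung form Cox4i2 had 4.63 ± 0.64 and 4.29 ± 0.90. The testis forms gave 4.67 ± 0.24 and 5.52 ± 0.50 for Cox6b2 and 3.95 ± 1.40 and 3.96 ± 0.97 for Cox7b2. Cox6b2 was higher on every high fat array (4.96 to 5.92, against 4.40 to 4.84), with means below the limit in both groups.

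Matching by symbol also brought in 2 complex IV genes that are no subunits. Cox7a2l, a factor that joins complexes III and IV into supercomplexes, had 12.10, 12.19 and 12.15 in controls and 12.30, 12.39 and 12.27 in high fat pups. It was the only tested member above all controls on every high fat array, 13% higher in the mean (difference 0.18, SE 0.12, limma adjusted p = 0.553). Cox6c-ps1, annotated as a pseudogene, had 7.11, 6.89 and 6.90 against 6.81, 6.64 and 6.76 (difference -0.23, SE 0.13, limma adjusted p = 0.488). Its sequence resembles that of Cox6c, and whether the probe set also detects Cox6c was not tested. Leaving out both, and the inhibitor Atp5if1, 34 of 36 subunit genes were lower, with a median of -0.18. Of the 36, 23 were lower without overlap (63.9%, against 11.5% of all genes tested).

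Complex V, the ATP synthase, had all 16 genes lower, with a median of -0.19. Of these, 11 were without overlap (68.8%, against 11.5% of all genes tested). At an unadjusted p under 0.05, 2 of the 16 were lower, where 7.51% of all genes were. The widest difference was in Atp5me, subunit e, a small membrane subunit at which ATP synthase dimers join. It had 12.74, 12.64 and 13.14 in controls and 12.33, 11.78 and 12 in the high fat group. Every high fat array was below every control, and the mean was 1.75-fold or 42.7% lower (difference -0.80, SE 0.20, limma adjusted p = 0.207). Over single arrays left out, the difference ran from -0.95 to -0.66. A second, dim Atp5me probe set with a mean of 6.37 differed by -0.20 with overlap, so that the mean of both gave -0.50 (limma adjusted p = 0.323).

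Atp5mf, subunit f, lies beside subunit e in the membrane part. Its signals were 14.10, 13.92 and 14.09 in controls and 13.70, 13.68 and 13.66 in high fat pups. The high fat arrays were close together and apart from the controls (difference -0.35, 21.7% lower, SE 0.12, limma adjusted p = 0.292). The other small membrane proteins were lower as well, by -0.30 for Atp5mk (SE 0.13), -0.26 for Atp5mpl (SE 0.15) and -0.17 for Atp5mg (SE 0.12), without overlap for Atp5mk and Atp5mg. Together the 5 genes of this kind had a median of -0.30, a grouping made with their values known.

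**Figure D3:**
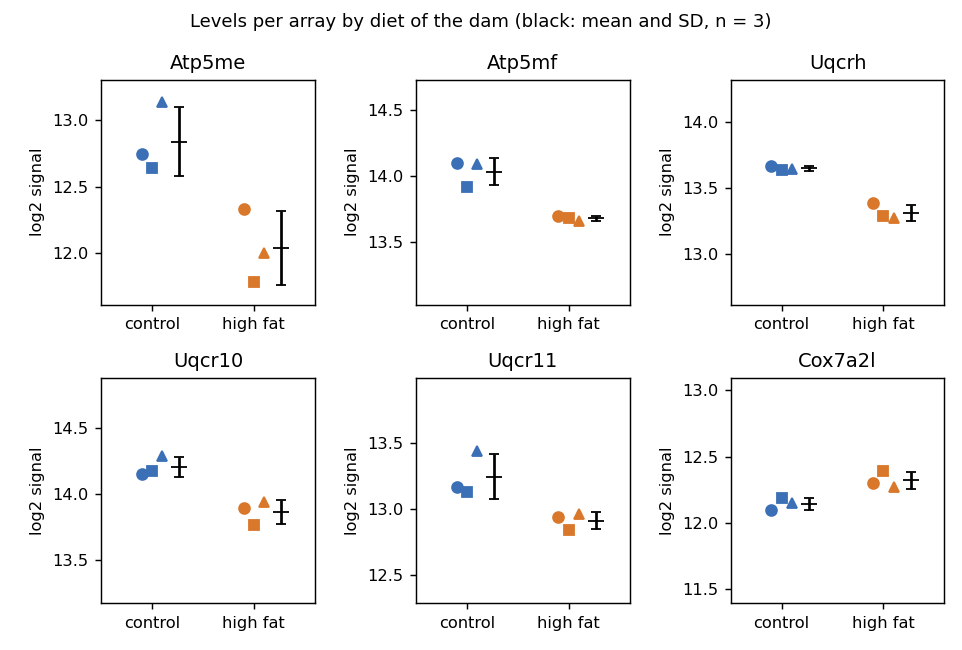
Log2 signal on each array (y axis, each panel spanning 1.7 units) by diet of the dam (x axis) for the 5 genes with an unadjusted p under 0.05 and for Cox7a2l; points are arrays, and black marks are the mean and SD of 3 arrays. The high fat points of Atp5me, Atp5mf, Uqcrh, Uqcr10 and Uqcr11 lie below all control points, and those of Cox7a2l above.

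The F1 head, where ATP is made, had smaller differences in the same direction for all 5 genes. Atp5f1a, the alpha subunit, had 13.81, 13.87 and 13.70 in controls and 13.65, 13.70 and 13.63 in high fat pups (difference -0.13, SE 0.12, limma adjusted p = 0.658). The lowest control and the highest high fat array were nearly equal. Atp5f1b, the catalytic beta subunit, had 14.20, 14.29 and 14.42 against 14.17, 14.26 and 14.21 (difference -0.09, SE 0.12, limma adjusted p = 0.788), with overlap. Atp5f1c, Atp5f1d and Atp5f1e, the subunits of the central stalk, differed by -0.17, -0.20 and -0.20, each without overlap.

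Atp5mc3, 1 of 3 genes for the same c subunit of the proton-driven ring, had 14.45, 14.46 and 14.53 in controls and 14.32, 14.28 and 14.34 in high fat pups. The groups were narrow and apart (difference -0.17, SE 0.11, limma adjusted p = 0.566). The peripheral stalk, which holds the head still, had differences of -0.23 for Atp5po, -0.18 for Atp5pd, -0.11 for Atp5pf and -0.08 for Atp5pb, without overlap for Atp5po and Atp5pd. A dim second probe set of Atp5po, with a mean of 4.01, differed the other way, by 0.92.

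Atp5if1, the inhibitor that binds the ATP synthase when the proton gradient fails, is no subunit of the enzyme. It had 10.58, 10.95 and 10.90 in controls and 10.36, 10.14 and 10.65 in high fat pups. High fat replicate 3 overlapped the controls (difference -0.43, SE 0.18, limma adjusted p = 0.360). Its dimmer probe sets differed by -0.15 and 0.24, so the direction was not the same on all 3.

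Genes with no probe set of their own could not be named with a value. Cycs (cytochrome c), Uqcrb, Cox7a2, Atp5mc1 and Atp5mc2 were present only on probe sets annotated to several genes. The 7 probe sets of this kind, 1 of them for Cox5a and others for genes already described, had a median difference of -0.21 and a range from -0.29 to 0.05. High fat means were lower on 6 of them, and 5 were lower without overlap, which held for 11.5% of all genes tested.

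Members with and without a motif gave similar values. Among tested members, 16 of 17 with at least 1 motif were lower (median -0.17), as were 14 of 16 with none (median -0.20).

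Complex I, which feeds electrons from NADH into the same chain, had 34 of 35 measured subunits lower, with a median of -0.21, against -0.18 for complexes II to V. It had 5 genes at an unadjusted p under 0.05, all lower, where 7.51% of all genes were. A further count, of genes lower without overlap, was 16 (45.7%, against 11.5% of all genes tested). The smallest p-values were those of Ndufa5, a peripheral arm subunit (difference -0.52, SE 0.12, limma adjusted p = 0.197), and Ndufs4 (-0.61, SE 0.15, limma adjusted p = 0.198). Ndufa4, placed with complex I by its name but known as a complex IV component, differed by -0.13 (SE 0.12).

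The factors that build complexes II to V were split in direction. Of 34 assembly factors 16 were lower and 18 higher, with a median of 0.01, and 1 had an unadjusted p under 0.05. That was Uqcc2, needed for complex III (difference -0.35, SE 0.12, limma adjusted p = 0.286), followed by the complex II factor Sdhaf4 (-0.30, SE 0.13, limma adjusted p = 0.363). Of 11 supercomplex and cristae factors 6 were lower (median -0.02), with Micos13, which shapes the cristae (-0.33, SE 0.12), and the supercomplex protein Higd1a (-0.38, SE 0.15) at an unadjusted p under 0.05. Whether the lists differ from the members was not tested.

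Regulators of respiratory genes went both ways, 11 of 21 lower, with a median of -0.04, and 2 lower and 2 higher at an unadjusted p under 0.05. Tfb1m, which modifies mitochondrial ribosomal RNA, was higher (0.42, SE 0.13, limma adjusted p = 0.269), and the cofactor Hcfc1 was lower (-0.48, SE 0.16, limma adjusted p = 0.292). The factors whose motifs were searched, or that are best known here, gave -0.11 for Nrf1 (SE 0.19), 0.26 for Gabpa (SE 0.16), 0.16 for Yy1 (SE 0.13), 0.12 for the coactivator Ppargc1a (SE 0.22) and -0.25 for Esrra (SE 0.19), with overlap in each. Gabpb1, the partner of Gabpa in the GABP complex, gave -0.54 (SE 0.21, limma adjusted p = 0.321), opposite in sign to Gabpa and also with overlap. Polg, the other regulator higher at an unadjusted p under 0.05, gave 0.52 (SE 0.22), with overlap. It and the 6 before it were named after their values were seen. Of the 21 regulators, 3 were higher without overlap, namely Tfb1m, Tfb2m (0.28, SE 0.15) and Tfam (0.23, SE 0.14). The 2 lower without overlap were Hcfc1 and Mtor (-0.16, SE 0.12). Over all genes tested, 9.24% were higher and 11.5% lower without overlap.

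Other mitochondrial lists had medians closer to 0. The tricarboxylic acid cycle had 8 of 12 genes lower (median -0.06, 1 at an unadjusted p under 0.05), led by Idh3g (-0.50, SE 0.16, limma adjusted p = 0.276) and Mdh2 (-0.22, SE 0.12). Import and mass markers had 13 of 19 lower (median -0.06, 0 at an unadjusted p under 0.05 in limma and 0 at an adjusted one), with the smallest p for Timm8b (-0.33, SE 0.15) and the phosphate carrier Slc25a3 (-0.28, SE 0.13). Mitochondrial ribosomal proteins had 52 of 73 lower (median -0.11), whereas cytosolic ribosomal proteins had 5 of 40 lower (median 0.07).

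Enzymes that pass electrons to coenzyme Q by other routes, or make it, had 10 of 16 genes lower and a median of -0.09, with 3 lower and 2 higher at an unadjusted p under 0.05. Gpd2, the mitochondrial glycerol phosphate dehydrogenase, had 8.14, 8.40 and 7.79 in controls and 9.62, 9.26 and 9.56 in high fat pups. All its high fat arrays were above all controls, 2.59-fold in the mean (difference 1.37, SE 0.20, limma adjusted p = 0.129). Coq4, a coenzyme Q synthesis protein, differed by 0.45 (SE 0.15, limma adjusted p = 0.276). The 3 lower genes were Sqor (-1.91, SE 0.67) and Prodh (-0.81, SE 0.27), both with overlap, and Coq7 (-0.42, SE 0.17), without.

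**Figure D4:**
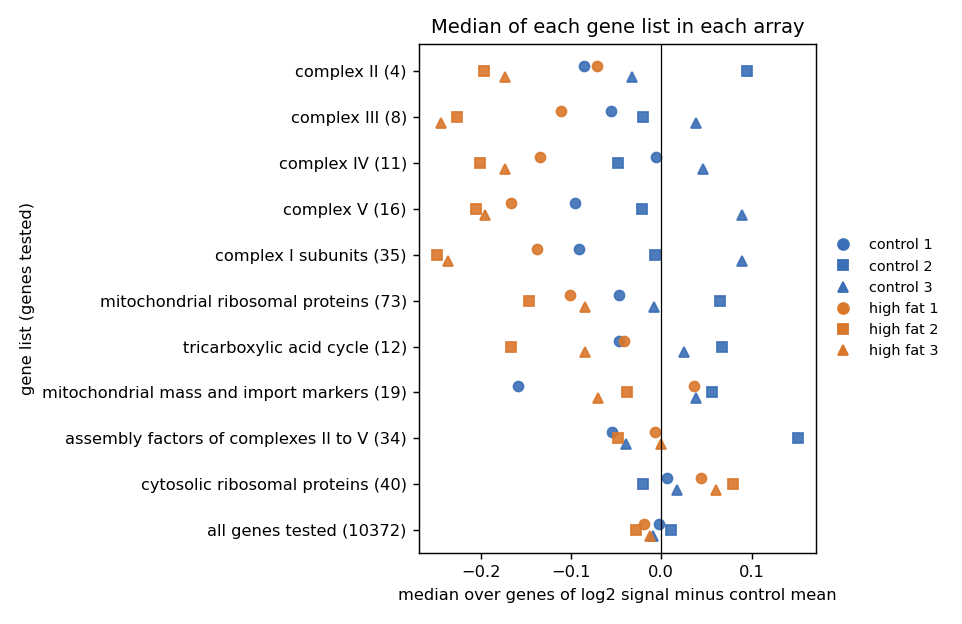
Median over the genes of each list of the log2 signal minus the control mean (x axis), 1 point per array, for complexes I to V, other mitochondrial lists, cytosolic ribosomal proteins and all genes tested (y axis, number of genes tested in brackets). For complexes III, IV and V the 3 high fat points lie left of the 3 control points; for complex II, high fat replicate 1 (-0.07) lies right of control replicate 1 (-0.09).

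Markers of other cell types were unequal between the groups as well. All 14 endothelial markers were lower in high fat pups (median -0.59, 9 at an unadjusted p under 0.05), and their summed unlogged signal, taken here and below over all markers of a list on the array, tested or not, was 26867 to 29692 in controls and 15847 to 20504 in the high fat group. Hepatocyte markers were lower in 9 of 13, with sums of 315265 to 321926 and 289565 to 304493. The sums for Kupffer cells (8 of 11 lower; 26806 to 30331 and 21214 to 29228), stellate cells (4 of 11 lower; 16492 to 17780 and 16098 to 19528) and erythroid cells (5 of 6 lower; 38687 to 49757 and 30281 to 40530) overlapped. The 14 exocrine pancreas markers on the array summed to 61679 in high fat replicate 1, against 1908 to 4236 in controls and 2649 and 3412 in the other high fat arrays; several of the 7 above the brightness limit passed it only through that array. Striated muscle, rich in these complexes, had 3 of 15 markers above the brightness limit, with sums of 8865 to 11876 and 7203 to 9310. Nearly all of that sum was the 1 probe set of Myh1 (13.05 to 13.48 in controls, 12.74 to 13.12 in high fat pups). Whether that probe set also detects other transcripts was not tested. Acta1, Ckm and Mb were below the brightness limit, and Myh6 was at 0 on at least 1 array. Of the 8 brown adipocyte markers, which include the member Cox8b, 2 were tested. Cidea was lower (-0.17, SE 0.39) and Ppara higher (1.29, SE 0.19, limma adjusted p = 0.129). The sums over all 8 were 488 to 1047 and 680 to 801, and Ucp1 was below the limit. The part of these cells in the levels of the respiratory genes was not tested, and in whole tissue fewer cells of a type and less RNA per cell cannot be told apart.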

How the data were processed

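RNA was measured in 6 liver samples, 1 array each. The deposited values are log2 signals per probe set, scaled by the authors so that each array has the same 2% trimmed mean once unlogged (500.2, found from the values); the sources used here do not name the software that summarised the probes. TRIzol extracts were labelled for 3' expression arrays, per the labels. Quartiles differed between arrays by up to 0.223, over a limit of 0.1, so the arrays were quantile-normalized. Of 31042 non-control probe sets, 20826 carry 1 gene in the annotation, 436 several and 9780 none; only the first were named. The dimmest 40% of probe sets by mean (below 5.83) were left out, leaving 10372 genes.

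The 2-sided test was limma 3.58.1 (lmFit, eBayes; R 4.3.3), and p-values were adjusted after Benjamini and Hochberg over the 10372 genes. Procedures were tested on simulated data, in which 52% of 2-fold and 84% of 4-fold changes were recovered. Changes smaller than 2-fold, as most of the members had, were not simulated. Lists were described by counts and medians without a test. Figures used matplotlib 3.10.9 in Python 3.11.15. The genes and lists were chosen with earlier results of these data known. Values on every array were given for the 3 smallest p-values and the highest mean in each complex, for core subunits and for tested isoforms, and of each other pathway list the 2 smallest p-values were named, apart from the ribosomal protein lists, which served as a reference. The alternatives covered normalization, dim probe sets, several probe sets per gene, variance model, array weights, replicate block, RNA integrity and each array left out.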

Additional observations from a re-analysis of the deposited data

How the results depend on the processing

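The median of complexes II to V kept its sign under every alternative run. Median centring moved it from -0.18 to -0.23 and that of complex IV from -0.18 to -0.23, while all genes moved from -0.02 to -0.05. Of 39 members, 5 had an unadjusted p under 0.05. The count was 10 with a trended robust variance, 2 with the RNA integrity covariate and 1 to 3 with 1 array left out. The share of all genes under the trended variance was not set beside the 10. The median level was 13.38 for the members and 9.07 for all genes tested. Median centring also moved the genes with a mean of 12 or more, members included, from a median of -0.016 to -0.076. The move of the members was thus not particular to them. Whether the counts of bright genes changed alike was not tested. The 4 genes past the adjusted threshold became 1 with no filter, 0 with the RNA integrity covariate (limma, 1138 at an unadjusted p under 0.05) and 0 to 4 with 1 array left out, the 0 coming without control replicate 1 or 3 (limma, 1305 and 1146 at an unadjusted p under 0.05). Over single arrays left out the median of complex III ran from -0.26 to -0.15. The cause of these moves was not tested.

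With the replicate number as a block, limma called 0 genes at an adjusted p under 0.05 (1103 at an unadjusted one) and 1 member at an unadjusted p under 0.05. Deviations of samples of the same number correlated at -0.13, -0.13 and -0.14, and those of different numbers at 0.04 to 0.08. With 3 arrays per group these values cannot decide whether samples of the same number share a litter or a day, which the labels do not give.

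The sign of a few members near 0 turned. Sdha (0.006) was -0.032 as deposited, -0.055 with median centring, -0.023 with array weights, -0.022 with the RNA integrity covariate and -0.044 to 0.064 with 1 array left out. Uqcrc2 (0.012) gave -0.0077, -0.030, -0.0084 and -0.042 in the same order and -0.044 to 0.061. Uqcrq (-0.027) was 0.0050 with array weights, 0.077 with the covariate and -0.076 to 0.062 with 1 array left out. Cox5a (-0.24) was 0.056 with the covariate. Atp5po (-0.23) was 0.34 as the mean of its probe sets, 1 of which is dim.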
